A study of Drosophila melanogaster with 12 samples.

Results

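Chromosome 4 of Drosophila melanogaster, the small dot chromosome, was examined in maps of Polycomb binding from larvae, made for the central brain, for the fat body and for the repo+ glia of that brain. The chromosome was taken as all its GATC fragments, the stretches of DNA between neighbouring GATC sites, that had a score in at least 1 of the 3 maps. That gave 2263 of the 3668 fragments listed for chromosome 4, which is 1.05% of the 215096 scored fragments of the whole series. Of the 2263, 1002 were scored in all 3 maps, 858 in 2 and 403 in 1, and the other 1405 listed fragments had no score. The list spans 1352 kb in the genome build dm3, and scored fragments ran from position 59795 to position 1321721. None of the 169 fragments listed in the first 50 kb, the end nearer the centromere, had a score.

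Polycomb is the chromodomain subunit of a Polycomb repressive complex. It binds histone H3 methylated at lysine 27, and the domains that it forms keep many genes for developmental transcription factors silent. Chromosome 4 is known for a different kind of silencing as well: most of it stains as heterochromatin, is rich in repeats and carries the heterochromatin protein HP1a, although genes lie all along its banded part. Its genes include several known developmental regulators, among them eyeless (ey) and twin of eyeless (toy), Pax6 genes of eye development, cubitus interruptus (ci), the transcription factor of Hedgehog signalling, and zfh2, a zinc finger and homeodomain factor. The RefSeq annotation at hand lists 80 protein-coding genes for the chromosome in Release 6. The fragments are in Release 5, so the blocks below are given by position and no gene is assigned to any of them.

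Binding was mapped by DamID, in which the bacterial adenine methyltransferase Dam, fused to Polycomb, marks GATC sites near its binding places, and Dam alone measures how open the chromatin is. Each source was profiled with Dam-Polycomb and with Dam only in 2 biological replicates, which makes 12 libraries in 6 groups, all from wandering larvae of the last instar. For the Dam-only brain samples, each replicate was itself made in 3 technical replicates. Brain tissue, taken without the nerve cord, came from males of a y,w background in which FL.hsp70P-Dam[4-HT-intein@L127C], either alone or joined to PC, sat in an M{} insertion at ZH51C. The intein system was left uninduced there, and each sample pooled 20 larvae. Fat bodies came from males with those same transgenes, induced with 25 uM 4-hydroxytamoxifen, and each sample pooled 10 larvae. Glial samples pooled 20 larvae of both sexes, which were y,w/w; repoFlp5 over an M{} insertion, also at ZH51C, of min.hsp70P-STOP#1-Dam with or without PC. In these the DamFLP system limits Dam to cells in which the repo-driven recombinase has acted. Binding scores carry no expression values, so the tissue labels could not be set against marker genes. The transgene thus stands under hsp70 promoter sequence in every group, and tissue cannot be told apart from induction between brain and fat body, or from DamID system and sex in any comparison with glia.

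The deposited value of a fragment is 1 log2 ratio of Dam-Polycomb to Dam only per tissue, the authors' mean over replicates. There is therefore no error between animals and no test, the read depth is unknown, and every spread below is a spread along the chromosome. Neighbouring fragments are not independent, so shares of fragments are given without intervals. Because the medians of the whole profiles differed (-1.24 in brain, 0.09 in the fat body and -0.60 in glia), most levels are given as centred scores, that is, after subtraction of the profile's median.

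On chromosome 4 the brain scores fell into a high and a low population with little between them. Only 10.3% of the 1144 scored fragments lay within 1 log2 unit of the brain median, against 41.8% of the 120496 scored fragments of the other arms (2L, 2R, 3L, 3R and X together). A share of 45.2% lay over 2 above the median and 33.8% over 2 below it, against 20.5% and 14.5% on the other arms. The SD over fragments was 4.17 on chromosome 4 and 2.77 on the other arms. When the other arms were divided into 86 consecutive windows of the length of chromosome 4, their SDs in brain ran from 1.44 to 3.98 with a median of 2.69, so that none reached the value of chromosome 4. The fat body and glial scores were spread less far apart. In fat body the SD was 2.10 on chromosome 4 and 1.98 on the other arms, and 15 of the 86 windows had a larger one. In glia it was 2.48 against 2.12, with 8 windows above.

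**Figure D1:**
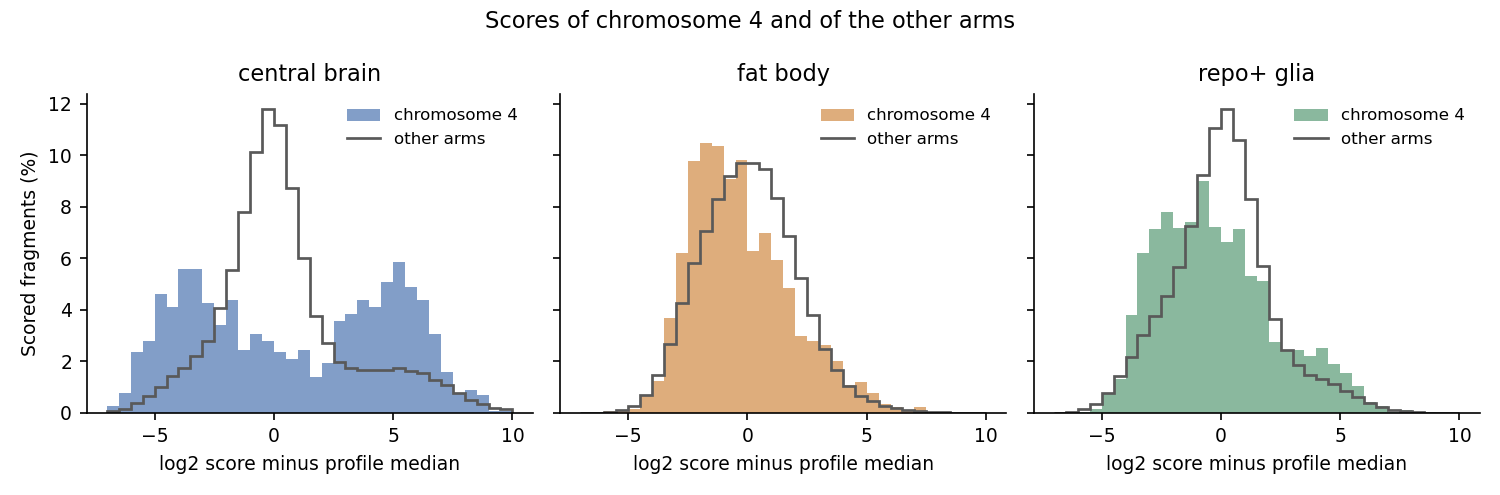
Centred log2 scores (x axis) against the percentage of scored fragments per step of score (y axis), for chromosome 4 (filled) and the other arms (line), in brain, fat body and glia. The brain histogram of chromosome 4 has 2 humps with few values around 0, where the other arms have their peak; in the fat body and glia chromosome 4 has 1 broad hump below 0.

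The median alone described this chromosome poorly. It was -0.47 on chromosome 4 and -1.23 on the other arms in brain, a difference of 0.76, but the sign of that difference turned to -0.17 over fragments of 200 to 2000 bp and to -0.03 over fragments scored in all 3 profiles. In fat body the medians were -0.49 on chromosome 4 and 0.12 on the other arms, a difference of -0.60. In glia they were -1.14 and -0.57, a difference of -0.57. The fat body difference stayed between -0.68 and -0.34 under the alternatives tried, whereas the glial one was -0.09 over fragments scored in all 3 profiles. In 82 of the 86 windows the fat body median was above that of chromosome 4, and the same number held for glia.

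Blocks were called with a hidden Markov model of 3 states fitted to each profile over all arms. A high block is a run of at least 5 scored fragments in the top state, and a low block such a run in the bottom state. In brain, chromosome 4 held 7 high blocks with 513 of its 1144 scored fragments, or 44.8%, against 18.3% over all arms. Of the 86 windows elsewhere, 2 had a larger share. It also held 12 low blocks with 488 fragments, or 42.7%, against 29.3% over all arms, and 7 windows exceeded that share. Between them the high and low blocks left 12.5% of the fragments in neither kind of block, where the other arms had 52.9%. By length the contrast was smaller for the high blocks: their 296 kb were 21.9% of the chromosome, against 11.5% of the other arms. The low blocks spanned 59.6% of the chromosome, against 40.8% of the other arms. Scores were missing unevenly in brain, since 92.6% of the fragments of 200 bp or longer were scored within high blocks of chromosome 4 and 39.1% within its low blocks (89.8% and 46.1% on the other arms). A share of scored fragments therefore counts the high blocks more fully than the low ones.

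In fat body, chromosome 4 had 402 of 1851 scored fragments in 16 high blocks. This share of 21.7% was below the 27.3% of all arms, and 59 of the 86 windows elsewhere had a larger one. Its 28 low blocks held 833 fragments, or 45.0%, against 25.9% over all arms, and 2 of the 86 windows exceeded that share. In glia, 354 of 2130 fragments lay in 8 high blocks, or 16.6% against 13.3% over all arms, and 26 windows had a larger share. The 26 glial low blocks held 1014 fragments, or 47.6% against 30.7%, again with 2 windows above. With these 3-state calls the low state was more common on chromosome 4 than over all arms in each profile, and the high state was more common in brain and, by less, in glia, and less common in the fat body. Some of these directions turned with the way of calling. With a running mean the high share in the fat body was 12.0% on chromosome 4, above the 9.07% of the other arms. With a 2-state model, whose low state takes in middle levels, the high share in glia was 40.9% on chromosome 4 and 57.6% on the other arms, and the low share in brain was 55.3% against 82.1%. The high share in brain was above that of the other arms under all 7 other ways of calling. In fat body and glia the scored share of fragments of 200 bp or longer differed little between the blocks of chromosome 4, at 87.1% in high and 88.2% in low blocks of the fat body and 82.2% and 86.7% of glia.

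**Figure D2:**
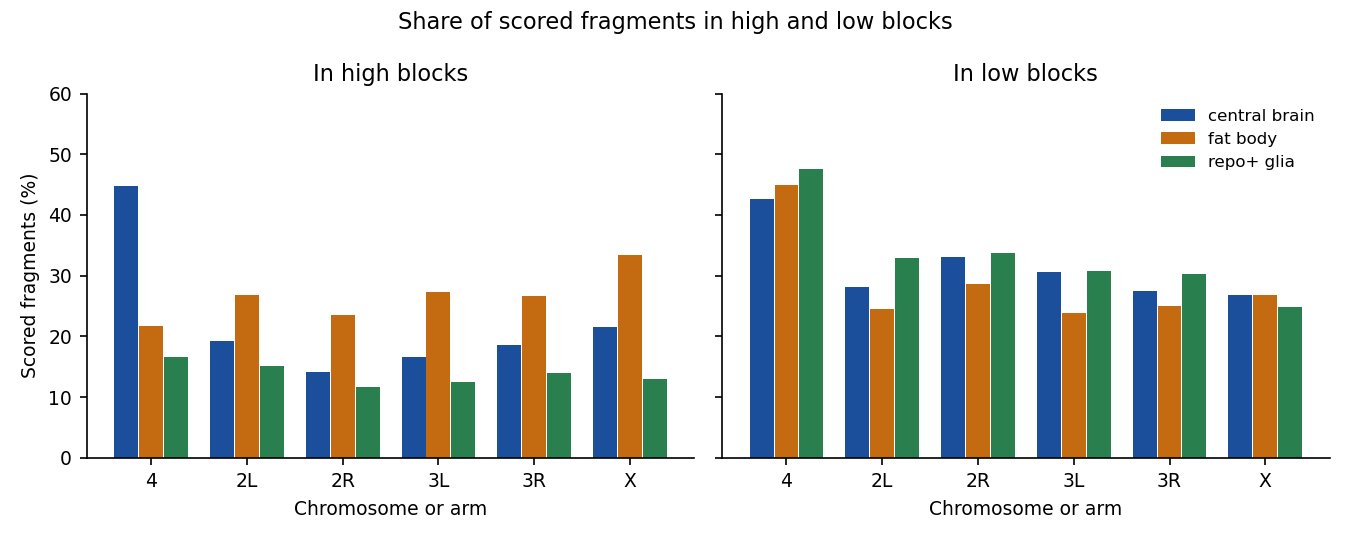
Percentage of scored fragments (y axis) in high blocks (left) and low blocks (right) for chromosome 4 and each other arm (x axis), 1 bar per profile. Chromosome 4 has the tallest brain bar among high blocks, at 44.8%, and the tallest bar of each profile among low blocks, at 42.7% in brain, 45.0% in the fat body and 47.6% for glia.

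The brain low blocks of chromosome 4 were also deeper than those of the other arms, while its high blocks were of about the same height. The median score of brain low blocks was -4.68 on chromosome 4 and -3.13 on the other arms, where the range by arm was -3.26 to -3.05. These medians rest on the 22.0% and 22.8% of listed fragments that had a brain score there. Their median lengths were 624.5 bp on chromosome 4 and 554 bp on the other arms. The median of brain high blocks was 3.76 on chromosome 4 and 3.81 on the other arms. In fat body the low blocks had medians of -1.82 on chromosome 4 and -1.99 elsewhere, and in glia -2.81 and -2.64. The high blocks of these profiles were higher on chromosome 4, with medians of 2.57 against 2.13 in the fat body and 3.28 against 2.67 in glia. Block levels follow from how the blocks were chosen and are given as a description.

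**Figure D3:**
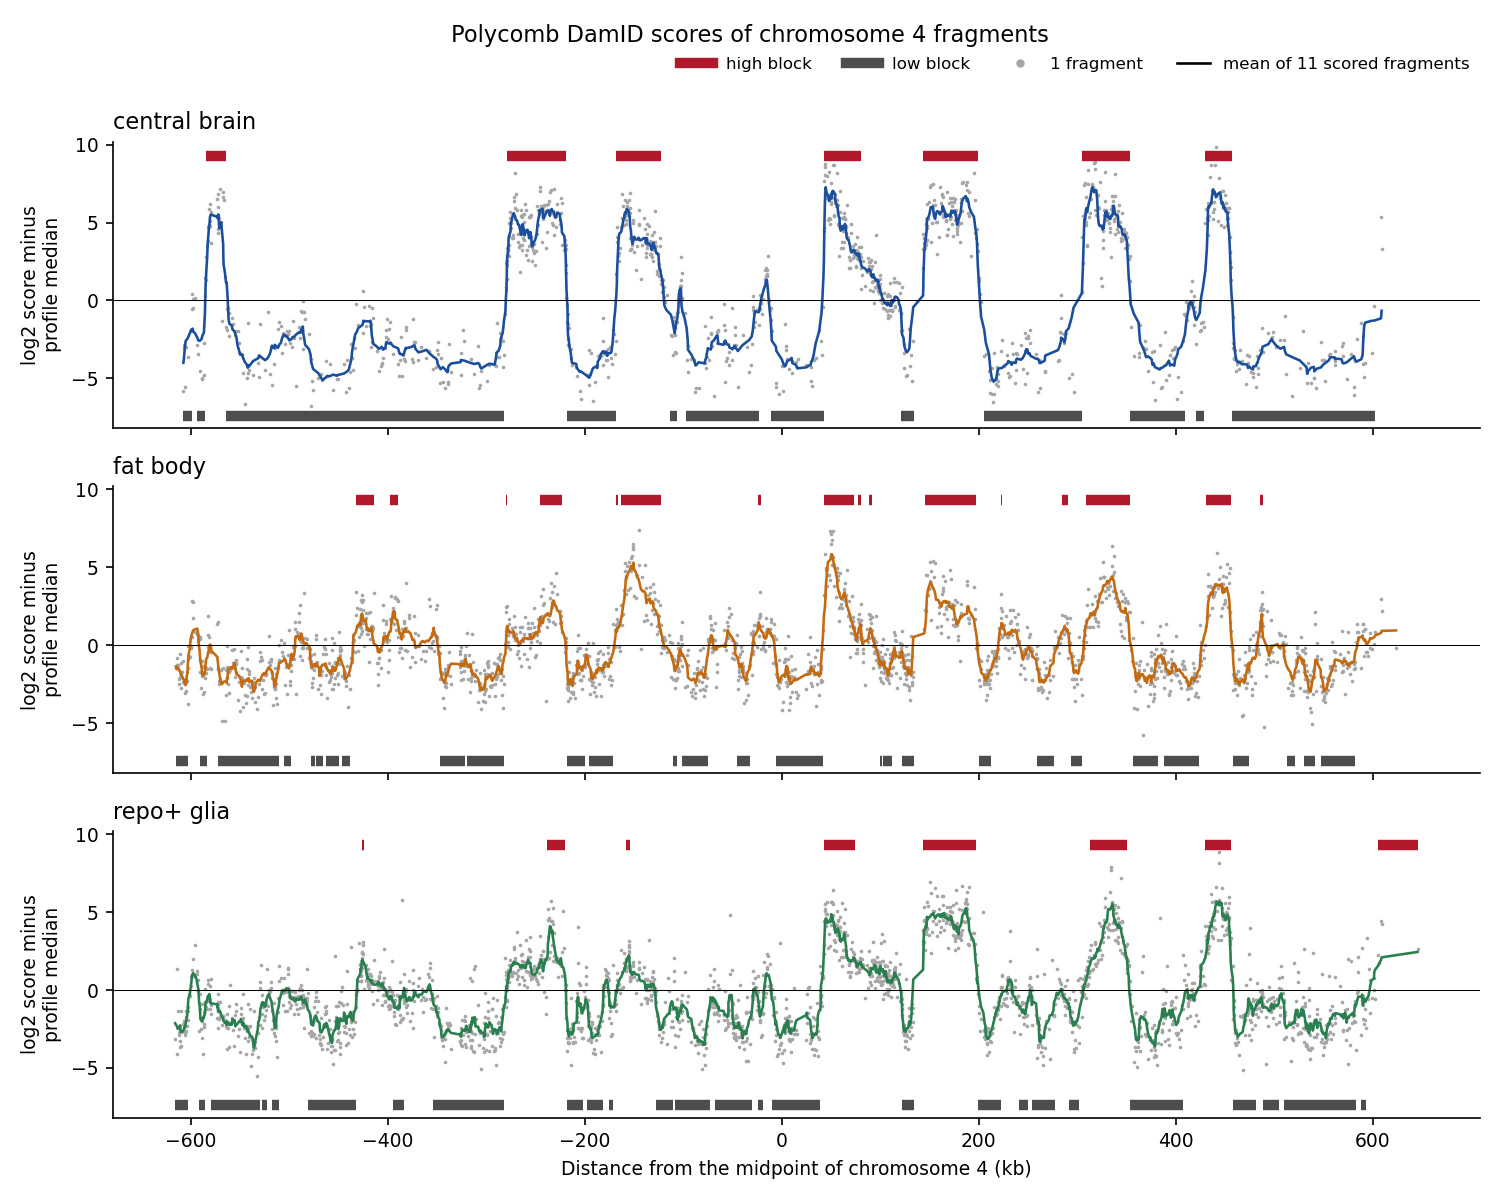
Centred log2 scores (y axis) of chromosome 4 fragments against their distance from the midpoint of the chromosome (x axis, kb), for brain, fat body and glia from top to bottom; grey points are single fragments, the line is the mean of 11 scored fragments, and bars mark high blocks (top) and low blocks (bottom). The brain has 7 high blocks that alternate with low stretches; 4 of them recur at high level in both other profiles.

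The 7 brain high blocks are numbered here from the centromere-proximal end. They were 20.4 to 60.3 kb long (median 45.3 kb, against 21.4 kb for high blocks of the other arms) and stood 50.6 to 285 kb apart. Their centred medians ran from 3.74 to 5.87 in brain, from -1.46 to 3.41 in the fat body and from -1.01 to 4.29 in glia. The blocks were chosen by their brain scores, which holds the brain medians high and close together. The narrower range in brain is therefore not a result.

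Block 1, from 90852 to 111294, was high in brain and low elsewhere. Its median score was 3.71 in brain (10th to 90th percentile 2.13 to 5.46, 29 fragments), -1.36 in the fat body (-2.36 to 1.43, 21 fragments) and -1.60 in glia (-2.48 to -0.32, 28 fragments). No fat body or glial high fragment lay in it, and 52.4% of its fat body fragments and 57.1% of its glial fragments were in low blocks. Both of those medians were below the medians of their profiles.

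Block 2, from 396713 to 457044, was the longest. Its median score was 3.54 in brain (106 fragments), 1.20 in the fat body (77) and 0.93 in glia (114). Only 32.5% of its fat body fragments and 25.4% of its glial fragments were in high blocks. Of those 25 fat body fragments 24 lay from 430245 to 452355, and the 29 glial ones lay from 437435 to 455398, towards the distal end. In the 10-kb bin from 400001 the centred means were 5.22 in brain, 0.47 in the fat body and 1.54 in glia. In the bin from 440001 they were 5.71, 3.00 and 3.04 for the same profiles. Over the bins between, the brain stayed within 4.33 to 5.59.

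Block 3, from 507655 to 552926, was shared by brain and fat body and only in small part by glia. Its median score was 2.50 in brain (81 fragments), 3.13 in the fat body (59) and 0.07 in glia (92). Among the fat body fragments 94.9% were in high blocks, against 10.9% of the glial ones. Those glial fragments, 10 in number, formed a short high block from 517849 to 521332. It was the lowest of the 7 in brain and the only one whose fat body median, as deposited, exceeded that of the brain. After centring the brain was higher, at 3.74 against 3.04 in the fat body, so the order depends on the scale. In the bin from 520001 the centred means were 4.39 in brain (SD over fragments 1.41, 16 fragments), 4.98 in the fat body (1.26, 11 fragments) and 1.49 in glia (0.88, 21 fragments).

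Blocks 4 to 7 were high in all 3 profiles. Block 4, from 718624 to 756358, had median scores of 3.64 in brain, 3.05 in the fat body and 2.48 in glia. Block 5, from 819313 to 875528, had 4.11 in brain, 2.44 in the fat body and 3.69 in glia. Block 6, from 981090 to 1029823, stood at 3.94 for brain, 2.85 for the fat body and 2.26 for glia. Block 7, from 1106061 to 1133351, was the highest in brain, at 4.64, and in the fat body, at 3.50, and had 3.51 in glia, below block 5. From 85.9% to 93.2% of their fat body fragments and from 72.6% to 98.4% of their glial fragments were in high blocks. Among the 1002 fragments scored in all 3 profiles, 95 lay over 3 above the median in each. Of these, 92 came from these 4 blocks and the other 3 from block 2. A fragment so far above the brain median tends to fall in a brain high block by the way blocks were called. The same count was not made for the other arms.

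**Figure D4:**
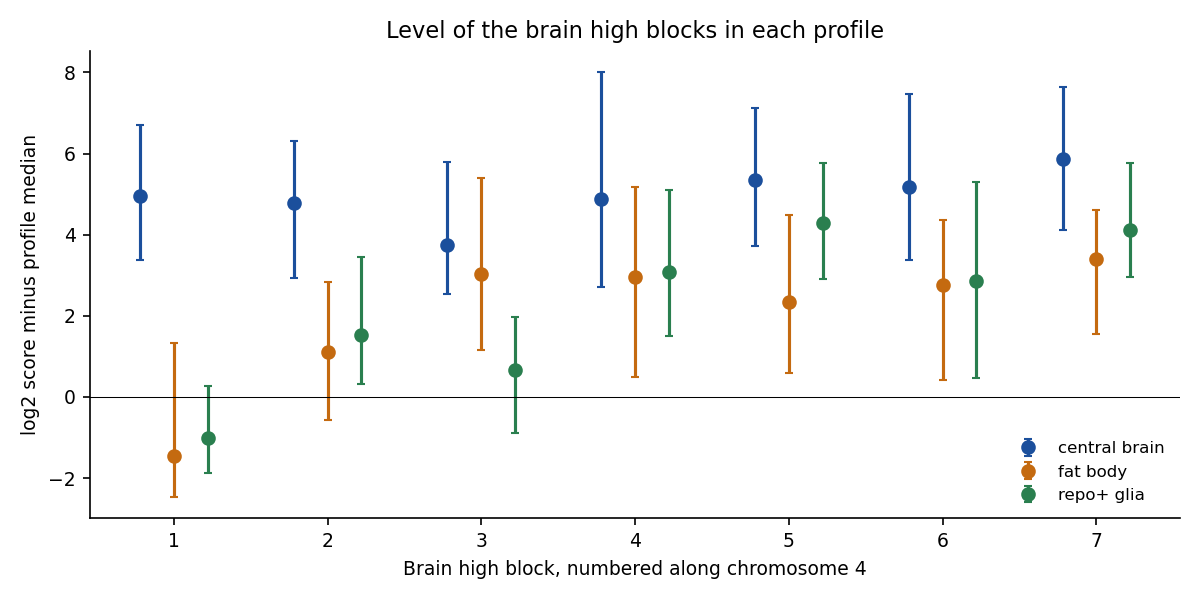
Centred log2 scores (y axis) of the 7 brain high blocks (x axis, numbered from the centromere-proximal end) in brain, fat body and glia; points are medians over fragments and bars reach from the 10th to the 90th percentile of fragments. All 7 blocks stand between 3.74 and 5.87 in brain, whose own scores chose them. Block 1 is below 0 in both other profiles, and block 3 is high in the fat body but has a median of 0.665 in glia.

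Block 4 had an inner shape that recurred in all 3 profiles: it began abruptly and declined over about its whole length and beyond. In the successive bins from 720001, 730001, 740001 and 750001 the centred brain means were 6.86, 5.25, 3.71 and 2.71. The fat body had 5.44, 3.40, 1.99 and 0.63 and glia 4.43, 3.63, 2.10 and 1.69 in the same bins. The decline went on past the distal edge to -0.24 in brain, -1.29 in the fat body and 0.78 in glia in the bin from 780001. Block 6 had its highest brain bin, at 7.06, from 990001, where the fat body stood at 2.30 and glia at 2.46. Both of those profiles were higher farther along. In the bins from 1000001 and 1010001 the brain had 4.78 and 5.57, the fat body 3.77 and 3.90, which differ by less than the scatter of a bin mean, and glia 4.05 and 4.69. The scatter of a bin mean on chromosome 4, from odd against even fragments, was 0.30 for brain, 0.25 for the fat body and 0.29 for glia.

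The edges of the brain blocks were compared with the other profiles, whose scores had no part in placing them. The glia are themselves cells of the central brain, so only the fat body is a tissue apart. Over the 5 scored fragments on each side of an edge, the mean was higher inside than outside at 12 of 14 edges in the fat body (median step 1.88, range -1.33 to 5.64) and at 13 of 14 in glia (median step 1.46, range -0.07 to 5.38). The brain steps, which placed the edges, had a median of 5.31. The start of block 4 at 718624 had the largest step in brain and fat body, while the start of block 5 had the largest in glia. The mean over 5 fragments was 5.26 inside and -3.65 outside in brain, 4.49 and -1.14 in the fat body, and 3.45 and -0.70 in glia, and all 3 models put the edge on the same GATC site. The distal edge of block 4 was on the same site in brain and fat body, and the starts of blocks 5 and 7 were in brain and glia. The nearest corresponding edge lay within 5 kb of the brain edge for 12 of 14 edges in the fat body and 7 of 14 in glia. Some of these fat body edges belonged to short blocks. They were 395483 to 397249 (6 fragments), 507327 to 509777 (6) and 753626 to 756358 (7), at the starts of blocks 2 and 3 and the distal edge of block 4. The longer fat body blocks beside them began at 430245 and 512721 and ended at 749687. Steps and distances were not counted for brain blocks of the other arms. An edge can only fall between scored fragments, and these differ between the profiles.

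**Figure D5:**
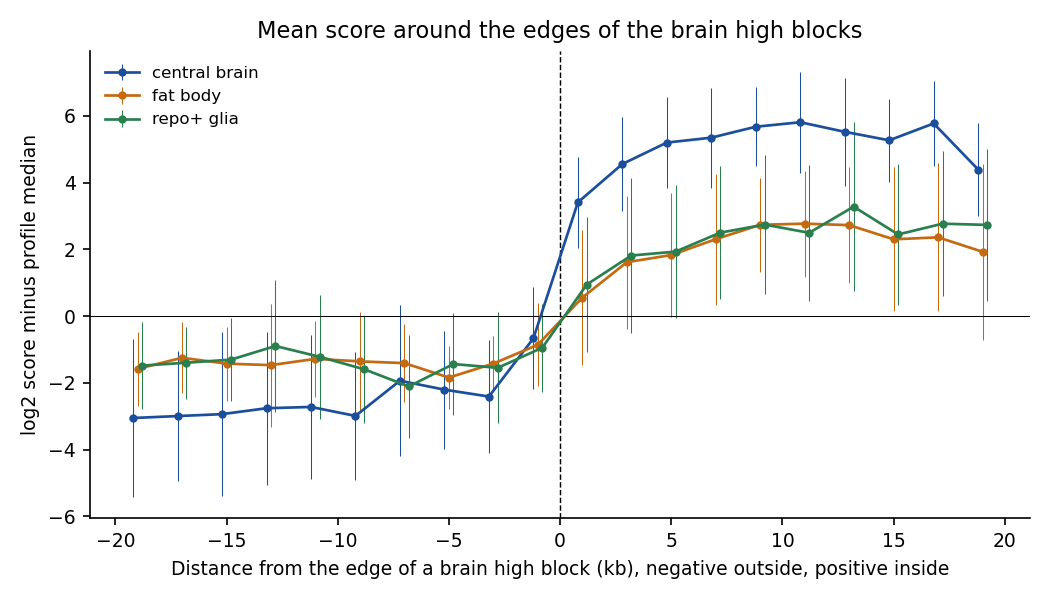
Mean centred log2 score (y axis) in steps of 2 kb around the edges of the 7 brain high blocks (x axis, distance from the edge in kb, negative outside and positive inside), 1 line per profile; points are means over up to 14 edges and bars are SDs over edges. All 3 lines cross 0 close to the edge, and the brain line, whose own scores placed the edges, is the steepest.

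Sharing between the profiles was then counted over fragments scored in both. Of the 1009 chromosome 4 fragments scored in brain and fat body, 295 were in high blocks of both, or 29.2%, against 10.5% over all arms. They made up 74.7% of the brain high fragments and 88.9% of the fat body high fragments. On the other arms these shares were 66.3% and 31.0%. Brain and glia had 1130 fragments scored in both, of which 283 were high in both, or 25.0%, against 11.8% over all arms. They were 56.0% of the brain high fragments and 98.6% of the glial ones, against 63.9% and 72.6% on the other arms. Of the 1725 scored in the fat body and glia, 231 were high in both, or 13.4% against 8.43% over all arms, and these made up 58.0% of the fat body and 96.7% of the glial high fragments (28.6% and 77.1% on the other arms). A share of this kind moves with how much the other set covers. High brain fragments were 39.1% of the fragments in the first of these comparisons on chromosome 4 and 15.5% on the other arms. In the second comparison they were 44.7% and 18.2%. High fat body fragments were 23.1% and 29.2% in the third. The larger shares of fat body and glial high fragments within brain high blocks thus came with a larger coverage by those blocks.

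Opposite calls were few. High in brain and low in the fat body were 11 fragments, or 1.09%, against 0.451% over all arms, and 25 were low in brain and high in the fat body, or 2.48% against 5.94%. High in brain and low in glia were 23, or 2.04% against 0.661%, while the reverse held for 2, or 0.177% against 0.429%. Calls high in brain and low elsewhere were thus a larger share on chromosome 4 than over all arms, and the reverse calls a smaller one. The 11 calls low in the fat body all lay in brain block 1, and the 23 low in glia lay in brain blocks 1 and 3. These shares therefore come from neighbouring fragments of those blocks and do not describe the chromosome as a whole. Between fat body and glia, 25 were high in the fat body and low in glia, or 1.45% against 1.49%, and 0 of 1725 were the other way round, against 0.183% over all arms. Among the 1002 fragments scored in all 3 profiles, 21.9% were high in all 3 and 24.1% low in all 3, against 8.45% and 9.06% of such fragments on the other arms. Those in neither kind of block in any profile made up 5.89% on chromosome 4 and 22.5% on the other arms.

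Fat body and glia had a few high blocks of their own. Of the 16 fat body blocks, 9 touched a brain high block and 7 did not, a share of 43.8% against 83.2% over all arms. These 7 held 92 fragments, with 5, 5, 8, 9, 11, 14 and 40 in single blocks. The number of fat body high blocks itself ran from 8 to 20 and that of glial ones from 6 to 16 under the other ways of calling. The longest, from 243300 to 261915, had a median of -2.75 in brain (13 fragments), 1.33 in the fat body (40) and 0.34 in glia (43). Another, from 278193 to 285943, had -3.63 in brain, on 2 fragments only, 2.14 in the fat body (14 fragments) and -1.47 in glia (16). Over the 7, fat body medians ran from 1.33 to 2.35 and lengths from 1.35 to 18.6 kb. The 5 fat body blocks with the most scored fragments all lay in brain blocks 3 to 7 and had medians of 2.53 to 3.77, and the highest of them, from 1106469 to 1131865, had medians of 4.68 in brain, 3.77 in the fat body and 3.90 in glia. Among 8 glial blocks 2 lay apart from brain blocks, or 25.0% against 58.0% over all arms. Brain high blocks covered 21.9% of chromosome 4 and 11.5% of the other arms, which bears on how often a block touches one. The first, from 249367 to 251235, rested on 6 fragments within the fat body block just named. The other, from 1281282 to 1321721, rested on 5 fragments spread over 40.4 kb of mostly unscored sequence near the distal end. Its median was 2.01 in glia. The other profiles had no block there, with medians of 3.10 in brain (2 fragments) and 2.31 in the fat body (3 fragments, of which 1 lay below the profile's median).

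Between the blocks lay long stretches that were low in brain and only in part low in the other profiles. The longest brain low block ran for 283 kb from 111295 to 394276, with centred medians of -3.28 in brain (163 fragments), -1.09 in the fat body (420) and -1.22 in glia (476). Next in length, that from 1133352 to 1277961, had -3.77 in brain, -1.11 in the fat body and -1.61 in glia. These 2 blocks were thus about equally low in the fat body, and the second was lower in brain and glia. Within these spans the other profiles were not evenly low. In the first, 56.9% of fat body and 59.7% of glial fragments were in low blocks, and 12.9% of the fat body ones were in high blocks. In its bins from 240001, 250001 and 280001 the centred means were 1.27, 1.21 and 1.51 in the fat body and 0.34, 1.07 and -1.11 in glia. In the second, 52.0% of fat body and 81.9% of glial fragments were in low blocks. As deposited, the longest fat body low block, from 103362 to 165201, had medians of -3.10 in brain, -1.98 in the fat body and -2.50 in glia, and it reached over the distal edge of brain block 1. The longest glial low blocks, from 1185558 to 1259157 and from 321658 to 394276, had brain medians of -5.20 and -5.38, fat body medians of -1.52 and -1.66 and glial medians of -2.80 and -3.26.

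Outside the brain high blocks as a whole, the median score was -4.07 in brain (631 fragments), -1.05 in the fat body (1445) and -1.92 in glia (1546). Fragments of the heterochromatic scaffolds, the sequence next to the centromeres, had medians of -3.42 in brain, -0.93 in the fat body and -1.66 in glia. They were scored far less often, at 3.74% to 15.0% of the listed fragments by profile, against 31.2% to 58.1% on chromosome 4. The chromosome 4 medians leave out its brain high blocks, whereas the scaffold medians leave out no block. The other arms outside their own high blocks were not computed, so no likeness to the scaffolds can be read from these values.

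Across 10-kb bins the correlations between the profiles were higher on chromosome 4 than over the other arms, although the differences were also more widely spread for both brain pairs. Pearson r was 0.749 for brain and fat body (97 bins), against 0.600 over the other arms. It was 0.841 for brain and glia (97 bins), against 0.738, and 0.851 for fat body and glia (119 bins), against 0.765. In each pair it was above the value of every single other arm, the highest of which were 0.639, 0.771 and 0.791. The wider spread of scores on chromosome 4, largest in brain, itself tends to raise r. Whole arms are also far longer, and r was not computed for windows of the length of chromosome 4. Bins are neighbours along 1 chromosome and share its fragments' lengths and missing scores, so these values describe the profiles. The SD of the difference over bins was 2.76 on chromosome 4 and 1.90 on the other arms for brain minus fat body, 2.36 and 1.59 for brain minus glia, and 1.10 and 1.12 for fat body minus glia. Over single fragments of brain and fat body, r was 0.736 on the whole chromosome, 0.428 within the brain high blocks and 0.381 outside them. Brain with glia gave 0.792, 0.504 and 0.576. Fat body with glia gave 0.755, 0.594 and 0.557. A split at brain high blocks narrows the range of scores, most directly those of brain, and so tends to lower r. The fall after the split therefore does not show a weaker relation. The other arms were not split in this way. Their values of 0.511, 0.663 and 0.665, with the pairs in that order, compare only with those of the whole chromosome 4.

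Differences between the profiles were counted over the same bins on the centred scale. Between brain and fat body, 34 of 97 bins were over 1 higher in brain, or 35.1% against 19.2% over all arms, and 47 were over 1 higher in the fat body, or 48.5% against 39.9%. Between brain and glia, 29 of 97 were higher in brain, or 29.9% against 22.5%, and 49 higher in glia, or 50.5% against 28.0%. Between fat body and glia, 23 of 119 were higher in the fat body, or 19.3% against 25.6%, and 17 higher in glia, or 14.3% against 11.6%. Most bins of chromosome 4 thus differed between brain and either other profile, in both directions, while fat body and glia lay within 1 of each other in 79 of 119 bins. The counts depend on the scale. As deposited, the brain was higher than the fat body in 19 bins (19.6% against 9.78% over all arms) and lower in 58 (59.8% against 70.5%), so that the excess of bins higher in the fat body seen after centring turned into a shortfall. After quantile normalization the counts were 17 (17.5% against 13.9%) and 50 (51.5% against 43.3%). Of the differing bins, the share higher in brain was 42.0% centred, 24.7% as deposited and 25.4% after quantile normalization, against 32.5%, 12.2% and 24.3% over all arms. For brain and glia that share was 37.2%, 28.0% and 25.3%, against 44.5%, 22.3% and 30.7%. For fat body and glia the share higher in the fat body was 57.5%, 90.8% and 55.3%, against 68.8%, 91.4% and 65.5%.

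The largest gaps in favour of brain lay in blocks 1 and 6. In the bin from 100001 to 110000 the centred mean was 5.27 in brain (SD over fragments 1.99, 16 fragments), -1.50 in the fat body (1.84, 10 fragments) and -1.45 in glia (0.63, 13 fragments). Brain thus exceeded the fat body by 6.77 and glia by 6.72. The bins from 980001 and 990001 followed in both comparisons, with gaps of 4.79 and 4.76 to fat body and of 4.58 and 4.59 to glia. In the other direction the brain values were very low. The bin from 280001 had -3.90 in brain, on 6 fragments, and 1.51 in the fat body, on 16. The bin from 900001 had -4.12 in brain, on 7 fragments, 0.72 in the fat body, on 14, and 0.23 in glia, on 18. The bin from 890001 had -4.70 in brain, on 11 fragments, 0.18 in the fat body and -0.84 in glia. In the bin from 1150001 the brain stood at -4.48, on 8 fragments, and glia at -0.89, on 21. Fat body and glia differed most in and beside block 3, where the bins from 520001, 550001 and 530001 were 3.49, 3.15 and 3.01 higher in the fat body. Glia exceeded fat body most in block 5, by 2.43 in the bin from 850001 and 2.39 in that from 860001, followed by the bin from 780001, beyond block 4, by 2.07.

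The 3 highest single fragments of each profile lay in brain blocks 3, 4, 6 and 7. The highest brain score, 8.63, was that of the fragment from 1116781 to 1117077 in block 7, which had 4.03 in the fat body and 6.00 in glia. In the fat body the highest score, 7.50, lay in block 3 from 530011 to 531124, with 3.64 in brain and 0.72 in glia. The fragment from 728032 to 728476 in block 4 was near the top of all 3, at 7.46 in brain, 7.42 in the fat body and 5.85 in glia. As for glia, its highest score, 8.25, came from 1119652 to 1119936 in block 7, a fragment without a score in the other profiles. The lowest brain score, -8.02, was that of the fragment from 197854 to 198271, which had -0.90 in the fat body and -3.20 in glia.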

How the data were processed

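The authors deposited 1 log2 ratio of Dam-Polycomb to Dam only per GATC fragment and tissue, averaged over replicates, per the file headers and the series' own account of its design. The submitters' processing notes name cutadapt, Bowtie2, HTSeq and the build dm3, and no source used here gives the rule for leaving fragments unscored. The log base was taken from the spacing of scores around the most frequent score, where the steps of log2 held 2249 brain fragments and those of natural log 130 (tolerance 0.0011). Read depth is unknown, so precision per fragment cannot be given.

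Blocks came from a hidden Markov model over scored fragments of arms 2L, 2R, 3L, 3R, 4 and X (3 states, each a Student t with 4 degrees of freedom, 2 starting points, Viterbi path, runs of at least 5). The model takes no account of distance between scored fragments. Bins of 10 kb needed at least 5 scored fragments per profile. The caller was tested on simulated scores. The named regions follow a rule: all brain high blocks, the 5 high blocks of fat body and of glia and the 5 low blocks of any profile with the most scored fragments, the 3 most different bins per pair and direction, and the 3 highest and lowest fragments; the text gives a selection of these. The fat body and glial blocks apart from brain blocks, and the bins that show inner shapes, were chosen after their values were seen. Members and lists were chosen with earlier results of these data known. Alternatives were other models, runs, emissions, lengths, bins, thresholds and scalings. The scripts used Python 3.11.15 with numpy 2.4.6, pandas 2.3.3 and numba 0.67.0. No reference sequence of the build was at hand, so no sequence is printed.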

Additional observations from a re-analysis of the deposited data

How the results depend on the processing

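No paired analysis was possible because the deposited scores are already means over replicates, and for the same reason no replicate could be left out. Of 120 values recomputed under alternatives, 81 stayed close to the reported one (counts within 1.5 times), 37 moved and 2 turned in sign. The number of brain high blocks was 7 under all 7 other ways of calling them, with 410 to 513 fragments, whereas fat body high blocks numbered 8 to 20 (16 reported) and glial ones 6 to 16 (8 reported). With 2 states the high fragments numbered 772 in fat body and 872 in glia, and 467 were high in both brain and glia, with 523 shared by fat body and glia. With a running mean the fat body had 223 high and 269 low fragments, and glia 493 low ones. A model fitted to the other arms only, added after seeing the data, left every count of high or low fragments within 1.5 times.

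The median of chromosome 4 minus that of the other arms turned negative in brain over fragments of 200 to 2000 bp (-0.17) and over fragments scored in all 3 profiles (-0.0315), and was 0.41 with means. In fat body it was -0.68, -0.43 and -0.34 in that order, and in glia -0.61, -0.091 and -0.23. The cause was not tested.

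Over 5-kb bins r was 0.718 between brain and fat body, whereas brain and glia had 0.776. Over 20-kb bins it was 0.850 for brain and glia. Spearman rho was 0.702 between brain and fat body, 0.826 between brain and glia, and 0.821 for the remaining pair.

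Of the 6 counts of bins apart, all moved with 5-kb bins, 5 with a threshold of 2, 3 as deposited and 2 after quantile normalization. The counts of 5-kb bins are taken over a different number of bins, so they cannot be set directly against those of 10-kb bins. Except for the scalings, no share over all arms was computed for these alternatives, and the counts show only how far each number moved. Higher in brain than fat body were 19 as deposited, 17 after quantile normalization, 20 over 2 apart and 54 of 5 kb, and higher in fat body 30 of 5 kb. Higher in brain than glia were 19 after quantile normalization, 17 over 2 apart and 54 of 5 kb, and higher in glia 29 over 2 apart and 27 of 5 kb. Higher in fat body than glia were 59 as deposited, 5 over 2 apart and 49 of 5 kb. Higher in glia were 6 as deposited, 4 over 2 apart, 30 of 5 kb and 11 with fragments of 200 to 2000 bp.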

Other observations

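A stretch mostly of middle level in brain and glia lay between brain blocks 4 and 5. In fat body it held low blocks from 775328 to 777319 and from 778467 to 787767, and a short high block from 764434 to 767183. From 760001 to 800000 the centred bin means in brain were 1.65, 0.94, -0.24 and -0.39, in fat body 0.53, -0.83, -1.29 and -0.55, and in glia 1.28, 1.14, 0.78 and -0.07. The stretch was also densely scored, with 13 to 21 brain fragments per bin. Brain bins in the long low stretch from 120001 to 390000 that reached the required minimum of 5 scored fragments had at most 9.

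At the distal end, the bins from 1260001 and 1270001 had centred means of 0.50 and 0.02 in fat body and -0.63 and 0.33 in glia, while the brain had -3.33 in the first and fewer than 5 scored fragments in the second. Beyond 1300000 only 1 fragment had a score, in glia.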
